A study of Mus musculus with 9 samples.

Results

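Expression of 8 genes of transforming growth factor beta (TGF-beta) signalling was followed in single cells of the mouse brain sorted for CD11b, a surface marker of myeloid cells. The genes were taken by symbol from the 31053 genes counted in every library, and all 8 were found: Tgfb1, which encodes the ligand TGF-beta 1, Nrros, whose product holds latent TGF-beta 1 on the surface of microglia, Tgfbr1 and Tgfbr2, which encode the type I and type II receptor, Smad3, a receptor-activated transcription factor, and Smad7, Ski and Skil, which encode inhibitors of the pathway. TGF-beta 1 is secreted in a latent form and bound by an anchoring protein until integrins release it. The free ligand brings the type II and type I receptor together, the type I receptor phosphorylates SMAD2 and SMAD3, and these enter the nucleus with SMAD4, where SKI and SKIL can repress their target genes and from where induced SMAD7 feeds back on the receptor. Microglia, the resident macrophages of the brain, depend on this pathway for their homeostatic gene expression, and mice that lack it in microglia or in the nervous system lose markers such as P2ry12 and Tmem119.

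3 groups of C57BL/6 mice were compared, untreated mice (Ctrl), mice fed a diet with the CSF1R inhibitor PLX5622 at 1200 mg/kg for 14 days, which kills most microglia (D0), and mice that had the same 14 days of inhibitor and were then without it for 2 days (D2). Each group had 3 libraries of live CD11b+ cells, made with the droplet-based 10x Genomics platform, and a Ctrl library held 1 brain while a D0 or D2 library held 2 pooled brains, so that the library was the replicate. Cerebellum and myelin were removed before the sort, and PLX5622 was given to the whole animal, in its food. Libraries of the 3 groups summed to between 20257894 and 61230741 unique molecular identifiers (UMIs, tags by which each captured transcript is counted once).

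After cells outside 500 to 20000 UMIs, under 200 genes or above 10% mitochondrial UMIs were left out, 30463 of 36391 barcodes remained, and no pair of libraries shared more than 8 barcodes. The library D2-3 stood apart and was left out by the study. Of its barcodes 37.3% were above the UMI limit, and 540 of its 577 microglia-like cells had UMIs of at least 2 mitotic genes, against 16.8% to 24.7% of the cells in D2-1 and D2-2. Values below come from the other 8 libraries, with the level of each of the 8 genes in microglia-like cells of D2-3 given beside them. Cell Ranger, which turns reads into UMI counts, is given in the file headers as version 3.0.2 in 6 libraries and as 3.1.0 in D2-3, Ctrl-2 and Ctrl-3. Among the 8 libraries the later version thus occurs only in Ctrl. Changes within the 6 libraries of version 3.0.2 stand beside the pooled ones for Tgfb1, Tgfbr1, Smad7 and Ski.

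Positions in GRCm38 are given for 7 of the genes, all protein coding, beside Smad7 (ENSMUSG00000025880). Tgfb1 (ENSMUSG00000002603) spans 25687002 to 25705077 on the plus strand of chromosome 7, Tgfbr1 (ENSMUSG00000007613) 47353222 to 47414931 on the plus strand of chromosome 4, Tgfbr2 (ENSMUSG00000032440) 116084293 to 116175360 on the minus strand of chromosome 9, and Smad3 (ENSMUSG00000032402) 63646767 to 63757994 on the minus strand of the same chromosome. Nrros (ENSMUSG00000052384) spans 32142785 to 32165594 on the minus strand of chromosome 16, Ski (ENSMUSG00000029050) 155154075 to 155222592 on the minus strand of chromosome 4, and Skil (ENSMUSG00000027660) 31095058 to 31122577 on the plus strand of chromosome 3.

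Promoters are shown for members that fell together and for members that hold the element of the pathway itself, since SMAD3 and SMAD4 bind a short element with the core CAGAC, which reads as GTCTG on the opposite strand. RefSeq entries of GRCm38.p6 held the promoter of 6 of the 8 genes, with 2 starts for Tgfbr1, and none was matched for Smad7 and Skil. Each sequence is the 250 bases before the RefSeq start, read 5′ to 3′ on the strand of the gene, with the core in capitals. Tgfbr1 (first start, chr4:47352972-47353221) and Ski (chr4:155222536-155222785) were lower in both treated groups, and Tgfbr2 (chr9:116175364-116175613) and Nrros (chr16:32165595-32165844) held the core. The Ski window overlaps the span of Ski given above, which comes from another annotation.
Tgfbr1: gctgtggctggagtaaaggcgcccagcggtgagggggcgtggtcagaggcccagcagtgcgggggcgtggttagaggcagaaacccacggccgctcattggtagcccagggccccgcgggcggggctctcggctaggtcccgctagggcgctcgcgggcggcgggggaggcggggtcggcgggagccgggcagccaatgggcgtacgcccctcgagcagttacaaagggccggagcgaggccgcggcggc
Ski: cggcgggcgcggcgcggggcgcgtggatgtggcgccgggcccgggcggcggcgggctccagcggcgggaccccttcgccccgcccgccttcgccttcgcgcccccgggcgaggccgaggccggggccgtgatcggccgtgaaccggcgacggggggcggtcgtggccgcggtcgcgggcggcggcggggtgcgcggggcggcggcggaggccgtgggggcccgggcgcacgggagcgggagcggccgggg
Tgfbr2: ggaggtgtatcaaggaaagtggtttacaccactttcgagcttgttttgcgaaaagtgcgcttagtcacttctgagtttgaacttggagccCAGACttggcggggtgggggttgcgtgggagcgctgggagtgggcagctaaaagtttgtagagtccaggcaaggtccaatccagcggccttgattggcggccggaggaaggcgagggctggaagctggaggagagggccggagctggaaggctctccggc
Nrros: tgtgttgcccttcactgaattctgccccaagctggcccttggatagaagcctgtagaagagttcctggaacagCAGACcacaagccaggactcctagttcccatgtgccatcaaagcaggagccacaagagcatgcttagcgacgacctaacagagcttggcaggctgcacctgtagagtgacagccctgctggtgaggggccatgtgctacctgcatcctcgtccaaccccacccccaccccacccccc
The core stood 160 bases before the start of Tgfbr2, 177 before that of Nrros and 203 before the second start of Tgfbr1. It was in none of the windows of Tgfb1, Smad3, Ski and the first start of Tgfbr1. Both strands were searched, and 42.2% of 32851 promoters of the same length held it, so that a match in this window is a description and no site. The Ski window was 87.6% G and C and the Tgfbr1 window 74.8%. GAGGAAGT, a motif bound by PU.1, the factor that defines myeloid cells, was in 2.44% of the promoters and in none of these windows.

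Cells were grouped by clustering and named after markers, as microglia-like and 9 other classes. All 12 microglia markers had at least 20 CPM (the standard CPM scale, a gene's UMIs relative to all UMIs of the cells summed, with every sum brought to the same total) in the 21451 microglia-like cells, and 11 of them were higher there than in any other class. The border-associated macrophage-like class (553 cells) had all 10 of its markers at that level and the monocyte-like (509), neutrophil-like (1173) and endothelial-like classes (902) likewise, whereas only 7 of 10 held for the dendritic cell-like (590) and 5 of 10 for the lymphoid-like class (144), so that the names of these last classes rest on fewer genes. The border-associated macrophage-like cells were not alike in all 5 libraries: the class markers Mrc1 and Pf4 had 652 to 1071 and 887 to 1195 CPM in the Ctrl libraries, 261 and 199 CPM in D2-2 and 63.2 and 47.4 CPM in D0-1, and the microglial P2ry12 had 875 to 1777, 99.3 and 42.9 CPM. Other class markers went the other way, Ms4a7 with 524 to 685 CPM in Ctrl, 1812 in D2-2 and 909 in D0-1, and Clec12a with 106 to 175, 534 and 832.5 CPM. Lyve1 had 0 CPM in D2-2 and D0-1. The means of this class pool these unlike libraries. Microglia-like cells of Ctrl had 2827 CPM ± 309 (SD, n = 3) of P2ry12. Whether microglia mixed into this class gave part of its levels was not tested. A library counted for a class with at least 20 cells of it. Levels across classes are a description, with no test, and are given per gene, since levels of different genes depend on their capture.

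The ligand was not highest in microglia. Tgfb1 averaged 378 CPM ± 136 (SD, n = 7 libraries) in monocyte-like cells, 348 ± 113 (n = 8) in microglia-like cells and 292 ± 97.1 (n = 5) in border-associated macrophage-like cells, and the library ranges of these neighbours overlapped. In the 7 libraries shared by both classes, microglia-like cells had more Tgfb1 than monocyte-like cells in 1. Next came dendritic cell-like (224 ± 56.5) and lymphoid-like cells (176 ± 43.4), and the range of the latter lay wholly above that of endothelial-like cells (106 ± 17.7). Nrros, which anchors the latent ligand, was also highest in monocyte-like cells, with microglia-like cells only in the fourth place: 179 CPM ± 40.4 in monocyte-like, 145 ± 34.0 in dendritic cell-like, 126 ± 21.9 in border-associated macrophage-like and 92.2 ± 30.6 in microglia-like cells. Below neutrophil-like cells (60.9 ± 34.7) there was a gap to endothelial-like cells (23.8 ± 7.50). Over the 10 classes, Tgfb1 and Nrros were the pair of members most alike, with a Pearson r of 0.923 of log2(CPM + 10) (10 classes that share libraries, no test).

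The receptors differed from each other. Tgfbr1 was highest in microglia-like cells, at 756 CPM ± 241 (n = 8), with border-associated macrophage-like cells next (466 ± 163, n = 5) and every other class at 133 or less. Over all libraries the ranges of these first classes overlapped, but within each of the 5 libraries that held both, microglia-like cells were above border-associated macrophage-like ones (means of 866 and 466 CPM). The border-associated macrophage-like level was 542 to 596 CPM in Ctrl, 378.5 in D2-2 and 221 in D0-1. Tgfbr2 had its highest mean in endothelial-like cells (240 ± 33.8, n = 8), where TGF-beta acts on vessel walls, then in border-associated macrophage-like (208 ± 42.4) and microglia-like cells (188 ± 41.3). The last 2 means rest on different libraries, and over the 5 libraries that held both they were 208 CPM each. Endothelial-like cells were above microglia-like cells in 6 of 8 libraries, and the ranges of all 3 classes overlapped. The exceptions were Ctrl-1 (238 CPM in endothelial-like and 246 in microglia-like cells) and Ctrl-3 (217 and 227 CPM). The order of the means thus rests on Ctrl-2 and the treated libraries. The range of microglia-like cells lay above that of mural-like cells (69.7 ± 17.7).

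Of the SMADs, Smad7 was the one whose microglia-like level (409 CPM ± 81.2, n = 8) lay wholly above the next class, endothelial-like cells at 225 ± 34.5. Border-associated macrophage-like cells had 186 ± 94.0, with 182 to 296 CPM in Ctrl, 143 in D2-2 and 56.4 in D0-1. Smad3 was found at low levels throughout, at 29.3 ± 7.36 in microglia-like and 27.4 ± 8.92 in border-associated macrophage-like cells, and no neighbouring classes were separated. In 3 small sums it had no UMI, which allows up to 9.27 CPM in the dendritic cell-like cells of Ctrl-1, 11.6 in the ependymal-like cells of D0-3 and 16.6 in the mural-like cells of Ctrl-1 (3 counts, counting error only). The corepressors had their highest means in microglia-like cells, Ski at 178 ± 46.6 and Skil at 310 ± 20.8. Ski came next in mural-like (119 ± 31.7) and Skil in border-associated macrophage-like cells (233 ± 75.7), and each overlapped its neighbour.

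**Figure D1:**
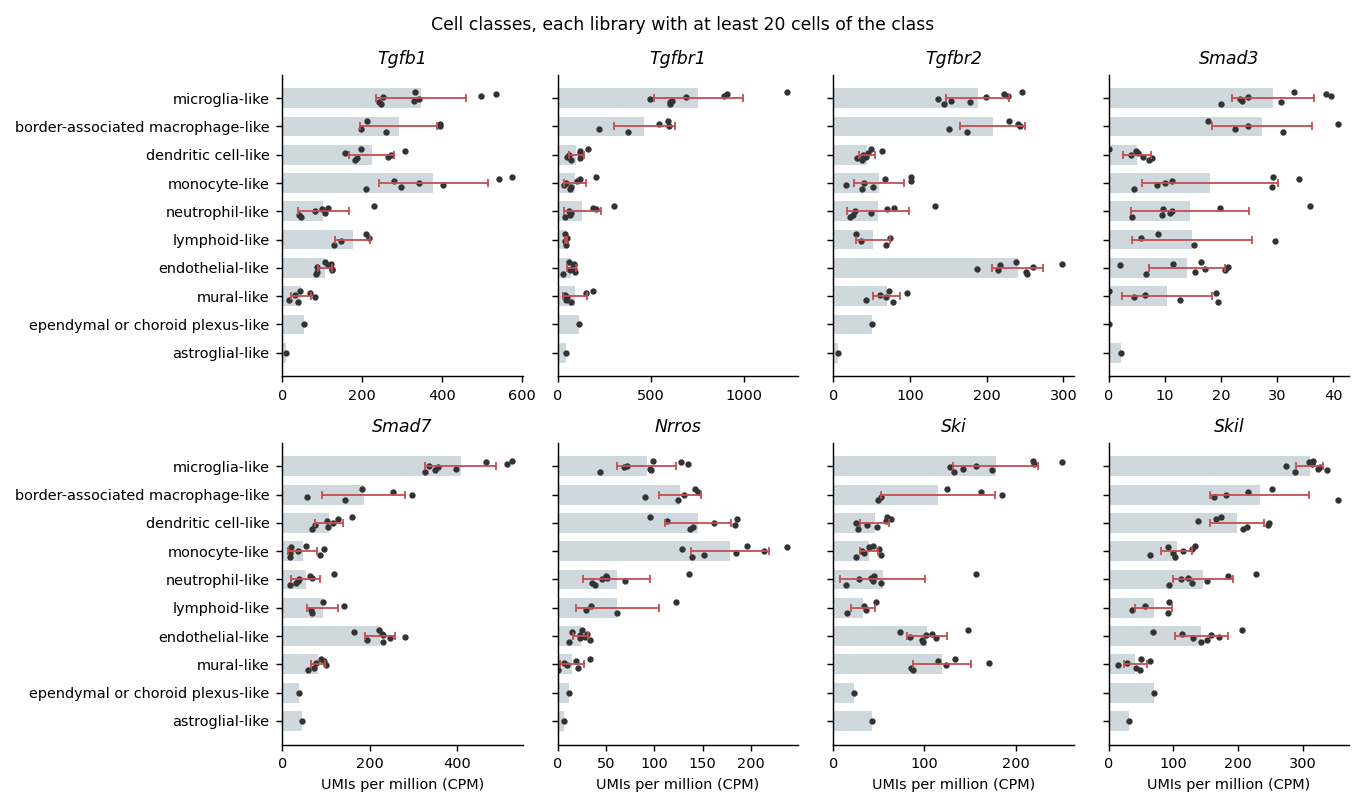
Level of each gene in CPM by cell class; bars are means, points are libraries with at least 20 cells of the class and whiskers are SD. By mean over libraries, Tgfbr1 and Smad7 were highest in microglia-like cells (756 and 409 CPM), Tgfb1 and Nrros in monocyte-like cells (378 and 179 CPM) and Tgfbr2 in endothelial-like cells (240 CPM). In Ctrl-1 and Ctrl-3, Tgfbr2 was higher in microglia-like than in endothelial-like cells.

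RNA released from broken microglia gives some UMIs in every droplet. 6 genes taken as microglial, P2ry12 and Tmem119 among them, served as a measure, and by library their median level in endothelial-like cells was 2.21% to 9.07% of that in microglia-like cells. Tgfbr1 in endothelial-like cells was 10.4% ± 4.47 (SD, n = 8) of its microglia-like level and above the highest of the 6 genes in 6 of 8 libraries, so that its endothelial level is close to this background. Tgfbr2 at 131% and Smad7 at 57.2% were above it in 8 of 8. In neutrophil-like cells, where the median of the 6 genes was 3.19% to 32.7% by library, Smad7 was 13.2% ± 7.06 of its microglia-like level. Smad7 exceeded the highest of the 6 genes in 2 of 7 libraries only and was not set apart from them, whereas Nrros at 68.6% exceeded them in 7 of 7. Whether released RNA or mixed cells gave these UMIs was not tested. The measure was not made for border-associated macrophage-like, dendritic cell-like and monocyte-like cells.

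Genes with the most similar order across the 10 classes were sought among 7242 genes with at least 50 CPM in a class, by Pearson r of log2(CPM + 10). Tgfbr1 was most like Fam102b (0.990), Pla2g15 (0.985) and Hpgds (0.985), the last encoding a prostaglandin D synthase. Tgfb1 was most like B2m (0.961), the light chain of MHC class I, Gsdmd (0.956) and Tm6sf1 (0.950), and Nrros like Casp1 (0.979), the inflammatory caspase, Rps9 (0.969) and Rel (0.965). Tgfbr2 was most like Pdgfb (0.939), a growth factor of vessels, Pla2g4a (0.931) and Fmnl3 (0.929). Smad3 was most like Tmem50a (0.945), Ep300 (0.922), a coactivator, and Sipa1 (0.913), and Smad7 like Kpnb1 (0.911), Erbin (0.905) and Abhd17c (0.891). Ski was most like Plod1 (0.942), Jmjd1c (0.941) and Rapgef5 (0.931), and Skil like Elmo1 (0.934), Icam1 (0.929) and Ier5 (0.926).

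Within the microglia-like cells, 9 clusters were found, numbered by size among the myeloid clusters. Tgfbr1 was highest in cluster 3 (1117 CPM ± 138, SD, n = 6 libraries), which was found mostly in Ctrl, and lowest in cluster 7 (428 ± 29.3, n = 5), led by the mitotic genes Top2a and Mki67. Of the 3431 cells of cluster 3, 2215 were from Ctrl-1. Smad7 ranged from 231 ± 33.6 in cluster 7 to 518 ± 51.3 in cluster 2, led by the immediate-early genes Fosb and Egr1. Cluster 7 was compared with clusters 1, 4 and 10 over the 5 D0 and D2 libraries that held all 4. Tgfbr1, Tgfbr2, Smad3 and Smad7 had their lowest mean in cluster 7, at 428, 113, 17.5 and 231 CPM, whereas Tgfb1 (237 CPM) and Ski (131 CPM) were lowest in cluster 10 and Nrros (58.6 CPM) and Skil (252 CPM) in cluster 1. Over all libraries, Skil was highest in cluster 4 (474 ± 63.4, n = 8), led by the inflammatory genes Tnf, Il1a and Cxcl2.

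**Figure D2:**
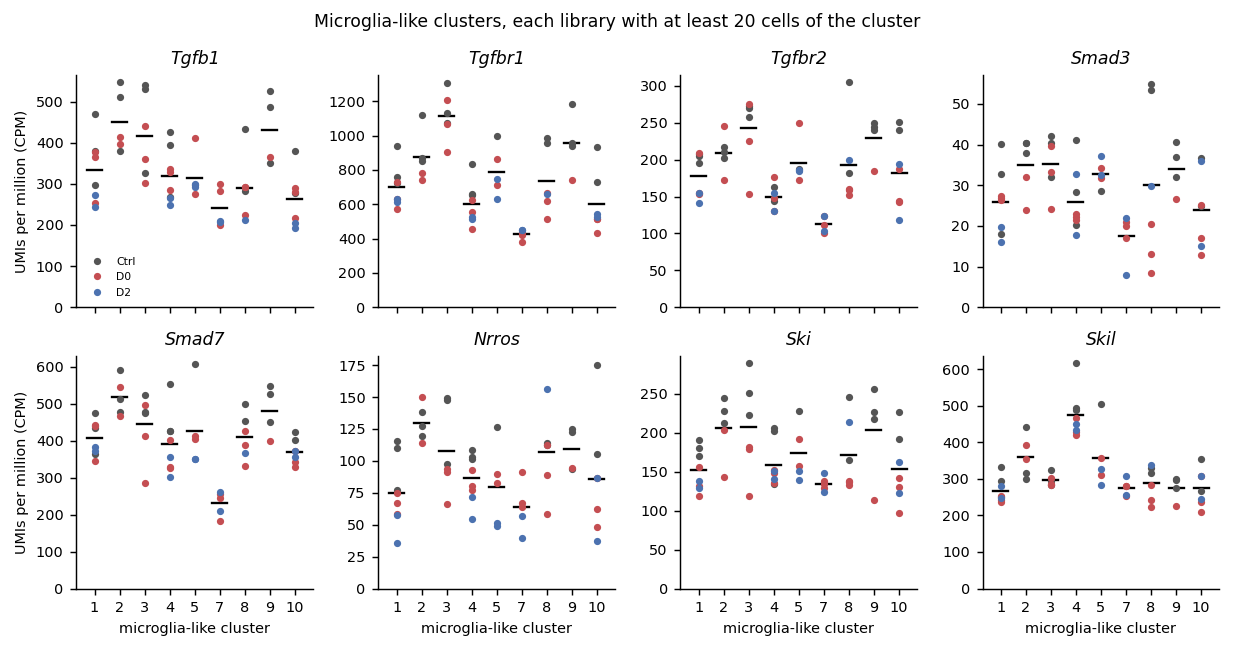
Level of each gene in CPM by microglia-like cluster; points are libraries with at least 20 cells of the cluster, coloured by group, and lines are means over libraries. Cluster 7 holds no Ctrl library, and its means of Tgfbr1 (428 CPM) and Smad7 (231 CPM) were the lowest of the 9 clusters, while Skil was highest in cluster 4 (474 CPM).

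To ask how the pathway changed when microglia were depleted and began to return, UMIs were summed over the microglia-like cells of each library (12081455 to 35587808 UMIs) and tested with edgeR's quasi-likelihood test over 12394 genes, with Benjamini-Hochberg adjusted p under 0.05 as a call. In D0, 2 of the 8 genes were called, both lower than in Ctrl, against 7.21% of all genes tested that were called lower and 19.4% called in either direction. In D2, 4 were called, all lower, against 7.74% and 18.6%. The median fold change (log2) of the 8 genes was -0.40 in D0 and -0.47 in D2, and of all genes -0.05 and -0.03. In CPM, the groups did not overlap for 6 of the genes in D0 and 7 in D2. The share of all genes without overlap was not counted. On this scale of library totals, 8900 of the 12394 genes tested had a fitted change below 0 in D0 and 7665 in D2. The cells came from different clusters: Ctrl cells lay mostly in clusters 2, 3 and 9, and D0 cells in 1, 4 and 7, beside 5 in D0-1 (406 cells) and 8 in D0-3 (325 cells). D2 cells lay mostly in 5, 7, 1 and, in 1 of the libraries, 8. The Ctrl libraries were not alike: cluster 3 held 2215 cells of Ctrl-1, 351 of Ctrl-2 and 507 of Ctrl-3. Cluster 2 held 379, 1350 and 2122 cells of them. Ctrl-1 also differs from Ctrl-2 and Ctrl-3 in the Cell Ranger version. The dividing share was 0.281% to 0.436% of cells for Ctrl libraries, 8.25% to 24.2% for D0 libraries and 16.8% to 24.7% for D2 libraries.

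The scaling sets how many genes pass. CPM values use the library total, whereas the fitted changes use TMM factors, which centre on the bulk of genes. With library totals alone (chosen after the data were seen) the median of all genes was -0.26 in D0 and -0.14 in D2, and 6 members were called lower in D0, Nrros and Skil not among them. Over all genes, 1507 were called higher and 893 lower in D0, and 1136 and 2651 with library totals, and in D2 1342 and 959, and 1113 and 1533. Markers of other cells were also summed in the microglia-like cells. The summed CPM of 10 border-associated macrophage markers ranged over 207 to 244 for Ctrl libraries, 118 to 153 for D0 and 122 to 125 for D2, with at most 2 at 0, and Stab1 made up most of each (213, 118 and 107 CPM on average). That of 10 astroglial markers was 181 to 200, 105 to 129 and 103 to 128, with at most 1 at 0 and Slc1a3 as the main part (166, 87.7 and 87.4 CPM). The sum of 10 monocyte markers was 58.4 to 173, 101 to 351 and 135 to 148, with at most 1 at 0. That of 10 neutrophil markers was 207 to 280, 197 to 408 and 276 to 438, with at most 3 at 0, and within it S100a8 averaged 6.38, 36.9 and 37.8 and S100a9 8.45, 55.0 and 55.5 CPM. These 4 genes were named after their values were seen. Their part in the results was not tested.

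The ligand gene Tgfb1 had 333, 536 and 499 CPM in Ctrl-1, Ctrl-2 and Ctrl-3, 252, 342 and 330 CPM in the D0 libraries and 243 and 247 CPM in D2-1 and D2-2. Ctrl-1 was the lowest Ctrl library and lay within the D0 range, while both D2 libraries lay below all others. The fitted change was -0.37 ± 0.21 (SE, log2, adjusted p = 0.251) in D0 and -0.80 ± 0.24 (adjusted p = 0.0461) in D2. The D2 call was lost without Ctrl-2 (-0.64), Ctrl-3 (-0.72), D0-2 (-0.80), D0-3 (-0.80), D2-1 (-0.73) or D2-2 (-0.83). Within the libraries of version 3.0.2, where Ctrl-1 is the only control, the change was 0.19 in D0 and -0.23 in D2, neither called, and the library D2-3 had 242 CPM.

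Nrros, the anchor of the latent ligand, had 99.0, 128 and 135 CPM in Ctrl, 71.7, 68.7 and 95.2 CPM in D0 and 96.5 and 43.4 CPM in D2. All 5 treated libraries were below the 3 Ctrl libraries, but D2-1 and D2-2 were more than 2-fold apart. Neither change passed the test, at -0.43 ± 0.26 (adjusted p = 0.291) in D0 and -0.69 ± 0.30 (adjusted p = 0.144) in D2, and the D2 value was -1.32 and called without D2-1 and -0.25 and not called without D2-2. Library D2-3 had 98.6 CPM.

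Of the receptors, Tgfbr1 was lower in both groups. It had 1232, 911 and 891 CPM in Ctrl, 692, 498 and 616 CPM in D0 and 603 and 605 CPM in D2, so that each treated library lay below each Ctrl library. The change was -0.54 ± 0.14 (adjusted p = 0.0222) in D0 and -0.63 ± 0.15 (adjusted p = 0.0197) in D2. It was the one member that was called in both comparisons within version 3.0.2, at -0.75 and -0.82, where Ctrl-1, its highest library, was the only control. The call was lost in D0 without Ctrl-1 (-0.40), D0-2 (-0.45) or D0-3 (-0.56), and in D2 without D2-1 (-0.57) or D2-2 (-0.66).

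The type II receptor gene Tgfbr2 had 246, 222 and 227 CPM in Ctrl, 199, 137 and 153 CPM in D0 and 178 and 145 CPM in D2. These ranges did not overlap with Ctrl either, yet the changes of -0.31 ± 0.13 (adjusted p = 0.135) and -0.41 ± 0.15 (adjusted p = 0.0845) did not pass. Without D0-1, the highest D0 library, both were called, at -0.44 in D0 and -0.41 in D2. In D2-3 both receptor genes were below all 8 libraries, Tgfbr1 at 207 CPM and Tgfbr2 at 89.2 CPM.

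Smad3, the transcription factor that relays the signal, had 33.0, 38.7 and 39.6 CPM in Ctrl, 24.8, 23.4 and 23.8 CPM in D0 and 30.7 and 20.1 CPM in D2. All treated libraries were below Ctrl, D2-1 only just, and D2-3 had 16.6 CPM. The change was -0.43 ± 0.16 in D0 (adjusted p = 0.0920) and -0.44 ± 0.18 in D2 (adjusted p = 0.128), and neither was called, although the D0 change was called without Ctrl-1 (-0.52). Smad7, the feedback inhibitor that SMAD3 induces, had 525, 466 and 513 CPM in Ctrl, 335, 357 and 398 CPM in D0 and 350 and 326 CPM in D2. No treated library reached the Ctrl range, and in D2-3 it had 71.8 CPM. Smad7 was called in D2 (-0.46 ± 0.12, adjusted p = 0.0278) and not in D0 (-0.26 ± 0.11, adjusted p = 0.122). The D2 call was lost without Ctrl-2 (-0.49), Ctrl-3 (-0.43), D2-1 (-0.45) or D2-2 (-0.43), and within version 3.0.2 the changes were -0.24 and -0.43, not called.

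The 2 corepressor genes parted. Ski had 219, 251 and 220 CPM in Ctrl, 156, 128 and 142 CPM in D0 and 174 and 133 CPM in D2, and was lower in both groups, by -0.50 ± 0.13 (adjusted p = 0.0264) in D0 and -0.48 ± 0.15 (adjusted p = 0.0489) in D2. Skil had 315, 309 and 314 CPM in Ctrl, 273, 326 and 323 CPM in D0 and 336 and 287 CPM in D2, the only member whose groups overlapped in both comparisons. Its changes of 0.18 ± 0.12 (adjusted p = 0.315) and 0.10 ± 0.13 (adjusted p = 0.641) turned to -0.02 and -0.0034 with library totals alone, so that it has no direction here. The difference between Ski and Skil was not tested. The Ski call was lost in D0 without Ctrl-2 (-0.41), Ctrl-3 (-0.52), D0-2 (-0.45) or D0-3 (-0.50), and in D2 without any library but Ctrl-1 (-0.32 without D2-2 to -0.63 without D2-1). Within version 3.0.2 it was -0.34 and -0.31, not called. In D2-3 Ski had 106 and Skil 133 CPM.

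**Figure D3:**
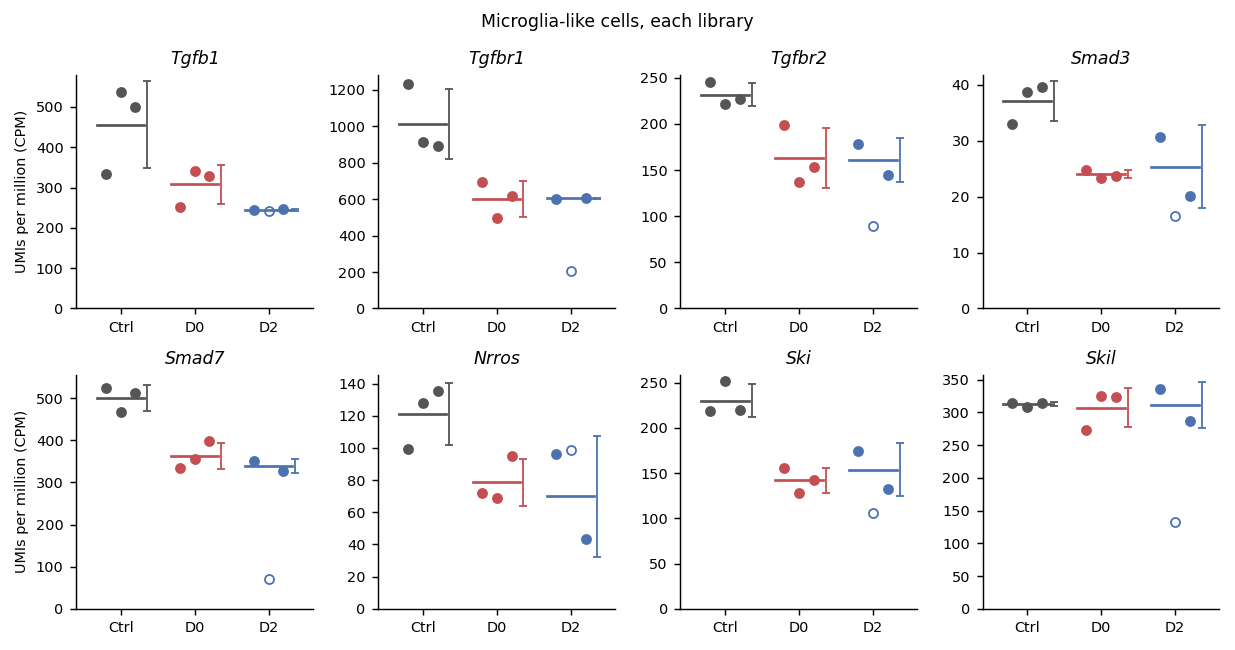
Level of each gene in the microglia-like cells of each library, in CPM, by group; lines and whiskers are means and SD, and the open point is D2-3, which enters no mean. Tgfbr1 lay between 891 and 1232 CPM for Ctrl, between 498 and 692 for D0 and between 603 and 605 for D2, whereas the groups overlapped for Skil.

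Several settings removed calls, while the called changes kept their sign. With D2-3 included, none of the 8 genes was called in either comparison, and in D2 the changes were -0.91 for Tgfbr1, -0.84 for Smad7, -0.68 for Tgfb1 and -0.53 for Ski. In non-dividing microglia-like cells, those without UMIs of at least 2 mitotic genes, none was called. Tgfbr1 was at -0.42 (adjusted p = 0.0868) and Ski at -0.45 (adjusted p = 0.0713) in D0, and Tgfbr1 at -0.52 (adjusted p = 0.0585) in D2. Cells with UMIs of 1 mitotic gene stayed in this set. With the version of Cell Ranger as a term, only Tgfbr1 was called, in D0 (-0.77) and D2 (-0.85), but since Ctrl-2 and Ctrl-3 alone carry the later version, these values rest on Ctrl-1, the highest library of Tgfbr1, as the lone control, which is assumed to vary like the other groups.

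Treated and Ctrl cells were also compared within clusters that held at least 20 cells of 2 or more libraries a group, which was so for 6 clusters in D0 and 3 in D2. These ratios are a description, and neither they nor the overlaps were computed for all genes. They use library totals. On that scale the median change (log2) of all genes over microglia-like cells was -0.26 in D0 and -0.14 in D2. Whether a ratio differs from this general shift was not tested. The mean of Tgfbr1 was below that of Ctrl in 6 of 6 clusters in D0, at 0.585 to 0.906 of the Ctrl level, and in 3 of 3 in D2, at 0.641 to 0.768. Libraries did not overlap in 4 and 3 of them. Ski was lower in all of them, at 0.589 to 0.803 in D0 and 0.684 to 0.805 in D2, with no overlap in 5 and 2. In cluster 3, where most cells were from Ctrl, Tgfbr1 averaged 1171 CPM in Ctrl and 1062 in D0, which overlapped, and in cluster 10, led by the interferon-induced Ifit3, 834 and 488, which did not. Tgfb1 in D0 was below Ctrl in 6 of 6 clusters, yet the libraries overlapped in each, whereas in D2 they did not overlap in 3 of 3. Some of these gaps were narrow. In cluster 4 Ctrl-1 had 268 CPM (66 UMIs in 25 cells) and D2-1 265, and in cluster 1 they had 298 and 272. Skil was below Ctrl in 5 of 6 clusters in D0 (0.776 to 1.06) and 3 of 3 in D2 (0.830 to 0.904).

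In other classes the groups were not tested. In monocyte-like cells Tgfb1 had 558 CPM ± 22.5 (SD, n = 2) in Ctrl, 342 ± 61.2 (n = 3) in D0 and 254 ± 61.1 (n = 2) in D2, with the Ctrl libraries above all others. These Ctrl libraries were Ctrl-2 and Ctrl-3, of Cell Ranger version 3.1.0, while the treated ones were of version 3.0.2. Group and version therefore cannot be told apart in this class. Endothelial-like cells had 251 ± 42.2 (n = 3), 221 ± 36.5 (n = 3) and 252 ± 1.51 (n = 2) of Tgfbr2, groups that overlapped. In border-associated macrophage-like cells, where 1 library each of D0 and D2 held at least 20 cells and the class markers differed between libraries as given above, groups were not compared.

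Between D2 and D0, which asks whether 2 days of return moved the genes, none of the 8 was called, and 0% of all genes were. At an unadjusted p under 0.05 stood 853 of the 12394 genes, and DESeq2 called 28. Tgfb1 had the largest change of the 8, -0.43 ± 0.24 (adjusted p = 0.702), with both D2 libraries (243 and 247 CPM) just below the lowest D0 library (252 CPM). Smad7 had -0.20 ± 0.12 and Nrros -0.27 ± 0.30. For Tgfbr1 (-0.08 ± 0.15), Tgfbr2 (-0.11 ± 0.15), Smad3 (-0.01 ± 0.18), Ski (0.02 ± 0.15) and Skil (-0.08 ± 0.13), the change was smaller than its SE and the groups overlapped. With errors of this size, the values do not show that D2 and D0 are alike.

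Dividing cells were compared with the other microglia-like cells of the same library in the 5 D0 and D2 libraries, with the library as a block. A cell was dividing with UMIs of at least 2 of 8 mitotic genes, none a member. Of the 8 genes, 5 were called, all lower in dividing cells, against 21.1% of the 11727 genes tested that were called lower and 42.2% called in either direction, so that calls were common in this comparison. Tgfbr1 had 452, 414 and 489 CPM in the dividing cells of D0-1, D0-2 and D0-3 and 479 and 486 CPM in those of D2-1 and D2-2, against 725, 534, 667, 633 and 658 CPM in the other cells. The 2 kinds did not overlap (-0.45 ± 0.07, adjusted p = 0.000384). Smad7 had 209, 274, 292, 293 and 262 CPM in dividing and 353, 392, 440, 364 and 355 CPM in other cells, again with no overlap (-0.51 ± 0.08, adjusted p = 0.000454).

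Tgfbr2 was likewise lower in dividing cells of 5 of 5 libraries (-0.44 ± 0.07, adjusted p = 0.000458), as were Smad3 (-0.44 ± 0.10, adjusted p = 0.00588) and Tgfb1 (-0.24 ± 0.07, adjusted p = 0.0158). The Tgfb1 call was lost without D0-2 (-0.24) or D0-3 (-0.22), and with D2-3 included (-0.16), whereas Tgfbr1, Tgfbr2, Smad3 and Smad7 were called in all 16 alternatives. Nrros (-0.13 ± 0.10), Ski (-0.12 ± 0.07) and Skil (-0.09 ± 0.07) were not called.

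MAC2+ cells, a small population defined by UMIs of Lgals3, were compared with the other microglia-like cells in the 7 libraries with at least 20 of them (all but Ctrl-2). Their share of microglia-like cells was between 0.562% and 0.903% for Ctrl libraries, between 2.15% and 4.88% for D0 and between 5.56% and 9.12% for D2. Of the 8 genes, 1 was called, Skil, which was higher, against 8.98% of 11787 genes called higher, 9.19% called lower and 18.2% in either direction. Skil had 320 to 444 CPM in MAC2+ cells (median 347) and 270 to 336 CPM in the others (median 314), and was higher in 7 of 7 libraries (0.21 ± 0.07, adjusted p = 0.0284), although the ranges overlapped. The call was lost without Ctrl-3 (0.17), D0-1 (0.19) or D2-2 (0.20).

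Tgfbr1 (-0.14 ± 0.06, adjusted p = 0.109), Tgfbr2 (-0.19 ± 0.08, adjusted p = 0.115) and Smad7 (-0.17 ± 0.08, adjusted p = 0.133) had lower values in 6 of 7 libraries and were not called. Tgfb1 (-0.07 ± 0.07), Smad3 (-0.05 ± 0.13), Nrros (0.03 ± 0.11) and Ski (-0.12 ± 0.08) were not called either. Over all kept myeloid cells, where MAC2+ cells can be of any myeloid class, 7 members were called, Tgfbr1 at -1.09, Smad7 at -1.03 and Nrros at 0.66, and Skil turned to -0.24. The shares of all genes given above are of microglia-like cells and not of this set. The count in this set is therefore no result about the members. The values in microglia-like cells hold for those cells alone.

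**Figure D4:**
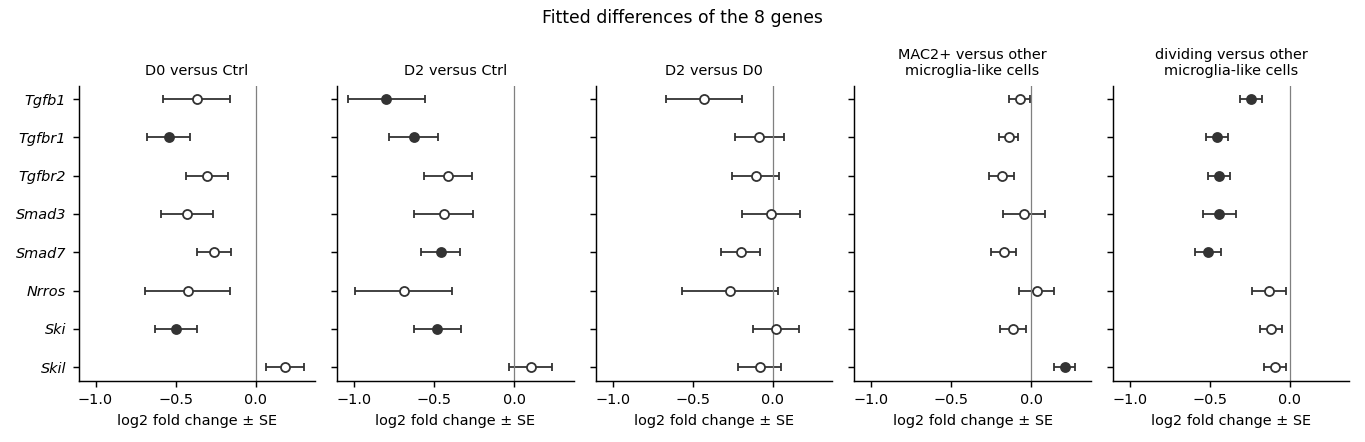
Fitted log2 fold changes of the 8 genes with their SE in 5 comparisons; filled points passed an adjusted p of 0.05. Tgfbr1 and Ski were called lower in D0 and D2, 5 genes were called lower in dividing cells and Skil alone was called, higher, in MAC2+ cells.

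The other genes of the pathway were taken from 4 lists with 47 genes, of which 37 were tested. In D0, 2 were called higher and 6 lower, and in D2 1 higher and 9 lower, with medians of -0.15 and -0.13. Of all genes tested, 12.2% were called higher and 7.21% lower in D0, and 10.8% and 7.74% in D2. Of the 9 receptors and co-receptors tested, none rose, and 2 in D0 and 3 in D2 fell. Eng, which encodes the co-receptor endoglin, fell from 78.6 CPM ± 10.7 in Ctrl (SD, n = 3) to 43.4 ± 4.87 in D0 (n = 3, -0.66, adjusted p = 0.0113) and 34.9 ± 1.64 in D2 (n = 2, -1.07, adjusted p = 0.00201). Acvr2b, an activin receptor, fell in D0 (-0.62) and Acvr1, a type I receptor of bone morphogenetic proteins, in D2 (-0.93).

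Of 5 other SMADs tested, 2 fell in both comparisons, Smad1 and Smad5, which act downstream of bone morphogenetic proteins, with Smad1 at -0.62 in D0 (adjusted p = 0.00224). Named outside the rule for their roles, Smad2 (-0.20 and -0.13) and Smad4 (0.04 and 0.21), the partners of Smad3, were not called. Of 19 regulators tested, 2 rose and 2 fell in D0 and 3 fell in D2. Over all genes tested, 19.4% were called in either direction in D0 and 18.6% in D2. The counts of regulators are near these shares and do not set the list apart. Pmepa1, a TGF-beta-induced inhibitor of the pathway, fell from 1078 CPM ± 133 in Ctrl to 576 ± 94.2 in D0 (-0.71, adjusted p = 0.0108) and 470 ± 46.8 in D2 (-1.10, adjusted p = 0.00219), and its relative Ldlrad4 fell in D2 (-0.90). Tgif1, which encodes a corepressor of SMADs, rose in D0 (0.95, adjusted p = 0.0318), as did Fkbp1a (0.58), whose product binds the type I receptor. Of the 4 ligand and latency genes tested, none was called in D0, and in D2 Itgav, a subunit of integrins that release the ligand, fell (-0.65) and Thbs1, an activator of latent TGF-beta, rose (1.71, from 4.30 to 13.1 CPM). Both were named after their values were seen, the latter being below the level set for named genes.

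Of 9 tested genes in a list of SMAD targets, which holds neither Smad7 nor Pmepa1, 3 were higher in D0 and none lower, and 2 were higher in D2 and none lower, against 12.2% and 10.8% of all genes called higher. Cdkn1a, which encodes the cell-cycle inhibitor p21 and is also a target of p53, rose from 27.4 CPM ± 4.81 to 134 ± 61.1 in D0 (2.51, adjusted p = 0.00115) and 133 ± 0.144 in D2 (2.39, adjusted p = 0.00219). Bhlhe40 (3.34) and, at 2.07 CPM, Id1 (1.38) were the others in D0, low genes outside the rule for named genes. In MAC2+ cells 7 of 9 rose and none fell (8.98% of all genes were called higher), with Cdkn1a at 1.61, Id2 at 1.21 and Tgfbi at 0.95. In dividing cells, where 21.1% of all genes were called in each direction, 4 rose and 2 fell, with Cdkn1a at 1.73. Eng and Pmepa1 fell in both kinds of cells, by -0.88 and -0.57 in MAC2+ and -0.71 and -0.60 in dividing cells.

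Of 14 homeostatic genes listed as TGF-beta-dependent in microglia, 9 fell in D0 and 11 in D2, against 7.21% and 7.74% of all genes called lower. None of the 14 genes rose. Their medians were -0.55 and -0.84, and their need for TGF-beta was not tested here. Of these genes 10 are also among the markers that named the microglia-like class. This list and that of genes raised without TGF-beta signalling were chosen with earlier results of these data known. The study had already reported several of their changes, so the counts and medians are a description and no independent support. The purinergic receptor genes P2ry13 (-1.56 in D0 and -2.43 in D2) and P2ry12 (-1.17 and -2.20), the fructose transporter gene Slc2a5 (-1.13 and -2.39) and Tmem119 (-0.87 and -1.86) had the largest falls. P2ry12 went from 2827 CPM ± 309 in Ctrl to 1099 ± 221 in D0 and 574 ± 3.05 in D2. In MAC2+ cells all 14 fell (median -0.55, 9.19% of all genes called lower) and in dividing cells 11 (median -0.37, 21.1%). Of 9 genes listed as raised in microglia without TGF-beta signalling, 8 rose in D0 and 8 in D2 (medians 2.29 and 2.48, 12.2% and 10.8% of all genes called higher). Among them were Axl at 3.50 and Apoe at 1.92 in D0, both named after their values were seen. All 9 rose in MAC2+ cells, one of them being Lgals3, which defines those cells, whereas in dividing cells 2 rose and 3 fell, Apoe with -1.19 among the falls.

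**Figure D5:**
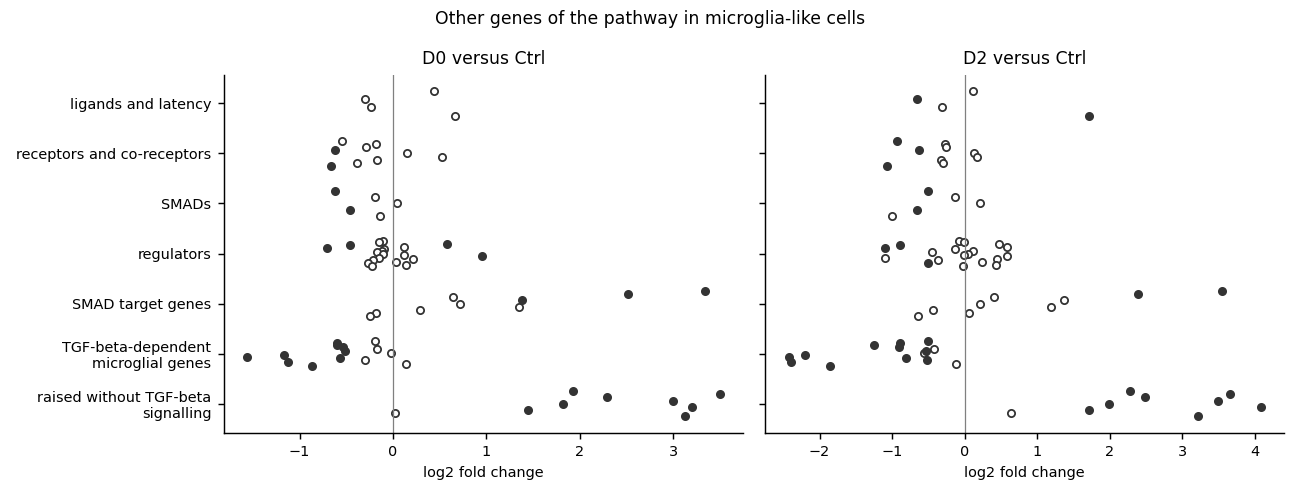
Log2 fold changes of the other pathway genes, SMAD target genes and TGF-beta-dependent genes in microglia-like cells, in D0 and D2 against Ctrl; each point is a gene and filled points passed an adjusted p of 0.05. The TGF-beta-dependent genes lay mostly below 0 (medians -0.55 and -0.84), the genes raised without TGF-beta above it (2.29 and 2.48). All lists were chosen with earlier results of these data known.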

How the data were processed

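Single CD11b+ brain cells were profiled in 9 libraries. The authors aligned reads to mm10 with Cell Ranger and deposited raw UMI counts per gene and barcode called as a cell; per the file headers the version was 3.0.2 in 6 libraries and 3.1.0 in 3, while the processing notes name 3.1.0. The members and all gene lists were chosen with earlier results of these data known.

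From the counts, the limits of the study on cells were applied. Cells were scaled to equal totals, log transformed and clustered (scanpy 1.11.5, Leiden, leidenalg 0.10.2, resolution 0.6, 10 components of 3000 variable genes, 20 neighbours). A cluster was named "-like" after a type with at least 3 raised markers, or microglia-like with at least 3 microglia markers at 100 CPM or more. It stayed unnamed with under 1/3 of its libraries' median UMIs and no marker of that type among its top 10 genes. A microglia-like cluster also stayed unnamed if another class had more markers among those 10 genes. At resolution 1.0 this alone left out clusters of 1369 and 384 cells. Names can differ from those of the study. No doublets were removed, since the 59 of 30463 cells (0.194%) that Scrublet marked were too few to trust; as an alternative, the top 4% of scores went. Sums of UMIs were made per library and class, since cells are not replicates. They were tested with edgeR 4.0.16 in R 4.3.3 (TMM, filterByExpr, quasi-likelihood test, Benjamini-Hochberg over all genes, adjusted p under 0.05), with D2-3 left out and the 3 groups in 1 fit. The test of D0 against Ctrl alone was run on simulated counts with known changes. These counts were drawn from the spread that edgeR fitted, so they cannot show whether the libraries follow it. The study's test, MAST, treats cells as units and was not used. A cell was MAC2+ if its Lgals3 level exceeded the mean by over 1 SD. Libraries with at least 20 cells of a kind were used.

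Named genes were the 8 members, in each comparison up to 4 rises and 4 falls among called pathway or SMAD target genes of at least 20 CPM, the 4 largest called changes of the TGF-beta-dependent genes, and the 3 genes most like each member across classes. Alternatives were DESeq2 1.42.0, RLE scaling, no filter on low counts, cells thinned to 2000 UMIs, no upper UMI limit, D2-3 included, each library left out, doublet scores, a resolution of 1.0, only the groups compared, the replicate number as a block, the Cell Ranger version, other sets of cells and other limits for MAC2+ and dividing cells. The labels number the libraries of each group. Deviations of same-numbered Ctrl and D0 libraries from their group means correlated with r of 0.413, 0.201 and 0.167, all above 0.1, so that these numbers pair the samples by that rule, although no label says what a number shares. The block changed no member's call in D0. Promoters came from RefSeq and gene positions from the GENCODE annotation, both of GRCm38. Intervals and floors cover counting error only. The depth per library is given with the results. Some genes of the lists enter counts only and are not reported here by name.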

Additional observations from a re-analysis of the deposited data

How the results depend on the processing

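No setting turned the sign of Tgfbr1, Tgfbr2, Smad3, Smad7, Nrros or Ski in D0 or D2 against Ctrl, or of any member in dividing cells, but the calls were fragile. Of the 8 genes, 2 were called in D0: 1 with cells thinned to 2000 UMIs, with a term for the Cell Ranger version or version 3.0.2 alone, 0 with D2-3 included or in non-dividing cells, and 6 with library totals alone. In D2, 4 were called: 0 with D2-3 included or in non-dividing cells, 1 with the version as a term or alone, and 2 over all kept myeloid cells. In MAC2+ cells 1 was called: 0 with thinned cells, without the library block or with a limit of mean plus 2 SD, 2 with no upper UMI limit and 7 over all kept myeloid cells. The share of all genes called over all kept myeloid cells is not given beside it. In dividing cells 5 were called: 4 with D2-3 included or without the library block, 6 with thinned cells and 5 under the other settings that kept all libraries. Between D2 and D0 every setting gave 0. Leaving out 1 library at a time gave 0 to 3 calls in D0, 0 to 4 in D2, 0 between D2 and D0, 0 to 1 in MAC2+ and 4 to 5 in dividing cells; with 1 D2 library left, it is assumed to vary like the others.

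Signs turned as follows (log2). In D0 Tgfb1 was 0.17 with the version as a term and 0.19 with version 3.0.2 alone, and Skil was -0.023 with library totals. In D2 Skil was -0.12 with D2-3 and -0.0034 with library totals. Between D2 and D0, where nothing was called, library totals gave 0.0050 for Tgfbr1, 0.089 for Smad3 and 0.020 for Skil; Smad3 was 0.16 with thinned cells, 0.0017 with the top doublet scores removed, 0.00063 at resolution 1.0, 0.00020 over all myeloid and 0.0104 in non-dividing cells; D2-3 gave 0.043 for Nrros and -0.053 for Ski, and thinning -0.086 for Ski. Leaving out 1 library there ranged from -0.22 to 0.029 for Tgfbr2, -0.31 to 0.23 for Smad3, -0.91 to 0.18 for Nrros, -0.15 to 0.18 for Ski and -0.18 to 0.0054 for Skil. In MAC2+ cells Tgfb1 was 0.092 at mean plus 2 SD, Smad7 0.071 with thinned cells, Skil -0.24 over all myeloid cells, and Nrros -0.14 with thinned cells, -0.0021 with no upper limit, -0.026 with D2-3 and -0.059 without the library block; leaving out 1 library gave -0.12 to 0.028 for Smad3 and -0.085 to 0.11 for Nrros. The cause of these changes was not tested. Of 232 class levels recomputed, 3 moved by more than 1 SD. The other 229 include levels of classes with 1 library, which have no SD and could not be counted as moved.

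With the replicate block, the calls in D0 were Tgfbr1 (-0.54) and Ski (-0.50), those without it. D2 and Ctrl share only a number (r of 0.0462 and 0.0762): there Tgfbr2 (-0.44) entered and Ski (-0.50) left, beside Tgfb1 (-0.68), Tgfbr1 (-0.64) and Smad7 (-0.41), and between D2 and D0 (r of -0.131 and 0.266) Smad3 was 0.0103 in the blocked fit. Not every library correlated best with its own number, Ctrl-3 being closest to D0-2 (0.301). Groups of 2 and 3 libraries limit every error given.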

Other observations

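Among the kept myeloid cells, 2 clusters of 2026 and 677 cells stayed unnamed, with median UMIs of 1684 and 870. They entered no main comparison, only the alternatives that added them or took all kept myeloid cells. In their sums Tgfbr1 ranged over 671 to 955 CPM for the 3 Ctrl libraries, 330 to 548 for D0 and 441 to 501 for D2, and Ski 136 to 202, 97.8 to 103 and 98.8 to 100.4 CPM, in both genes with no treated library in the Ctrl range. Tgfbr2 was likewise apart, at 154 to 198 CPM for Ctrl, 75.7 to 139 for D0 and 108 to 140 for D2. Smad7 ranged over 238 to 413 CPM for Ctrl, 219 to 236 for D0 and 134 to 180 for D2, and Tgfb1 247 to 365, 192 to 301 and 173 to 194 CPM. Smad3 and Nrros overlapped between Ctrl and D0, at 8.79 to 16.1 and 10.9 to 16.4 CPM for Smad3 and 32.3 to 92.2 and 45.1 to 59.2 CPM for Nrros. Skil had 246 to 301 CPM in Ctrl and 187 to 243 in D0, which did not overlap here, unlike in the microglia-like cells. In D2 it had 206 to 263 CPM, which overlapped with Ctrl. The differences in the unnamed cells were not tested, and the share of all genes without overlap was not counted. They are on the scale of library totals, on which most genes tested in microglia-like cells had a fitted change below 0.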
